A study of Mus musculus with 4 samples.

Results

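The 34 genes described here are markers of microglia and macrophages, read in RNA of primary mouse oligodendrocyte cultures with and without the long noncoding RNA lncOL1. They were chosen by name, with no minimum on expression, and all 34 had a value in each of the 4 libraries, out of 23435 gene symbols in all. The cells were oligodendrocyte precursors taken through 1 day of differentiation with T3, the thyroid hormone that starts differentiation in culture. The 2 control samples carry 1 shared genotype label, lncOL1+/+, lncOL1+/-, so which genotype each control has is not known. The 2 knockout samples are labelled lncOL1-/-, and all 4 are of mixed strain background. The labels do not say how the precursors were purified or whether each sample was a culture or animal of its own. The p-values therefore measure the spread between samples that may be technical repeats.

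Microglia are the resident macrophages of the brain. They enter it in early development from the yolk sac and depend on the receptor Csf1r and the transcription factors PU.1 (encoded by Spi1) and Irf8. They clear debris and synapses with the help of complement, and sense lipids and antibodies through receptors that signal by the adaptor proteins encoded by Tyrobp and Fcer1g. Oligodendrocytes come from a separate, neural lineage and are not a known source of most of these transcripts, whereas microglia and oligodendrocyte precursors lie side by side in the brain tissue from which such cultures are made.

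The libraries were first checked against their labels. lncOL1 (listed as 9630013A20Rik) was at 28.9 and 34.01 FPKM in control against 5.54 and 5.06 FPKM in knockout. FPKM count fragments per kilobase of a transcript relative to the mapped total, and are thus levels per length. The difference was -2.36 on the log2(FPKM + 1) scale (limma adjusted p = 0.000389). Oligodendrocyte lineage genes were present in every library: 15 listed genes, among them Cnp, Olig1 and Sox10, summed to 7657 and 8061 FPKM in control against 6914 and 7272 FPKM in knockout (1.82% to 2.16% of all FPKM in a library). Summed FPKM over all genes was 373484 to 383128. Relative depth against control 1 was taken from 561 genes above 0 and under 0.1 FPKM in every library. The most common ratio of control 1 to library value was 1.16, 0.933 and 1.13 for control 2, knockout 1 and knockout 2. The number of reads is not given in the files.

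The markers together summed to far less than the oligodendrocyte genes, and most were higher in both knockout libraries than in both control libraries. Their summed FPKM was 25.8 in control 1, 28.1 in control 2, 50.6 in knockout 1 and 54.7 in knockout 2, which is 0.00674% to 0.0146% of all FPKM in a library. The knockout mean was 1.95 times the control mean, and the 4 ratios of a single knockout to a single control library ran from 1.80 to 2.12. The groups thus did not overlap in the sum. Of the 34 genes, 25 had both knockout libraries above both control libraries, 1 had both below, 7 overlapped and 1 was at 0 throughout. Among all 17397 genes above 0 in any library, 21.9% had both knockout libraries above and 17.8% had both below. The genes were chosen with results of these data known, so these counts are a description. In bulk RNA, more cells of a type and more RNA per cell cannot be told apart.

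**Figure D1:**
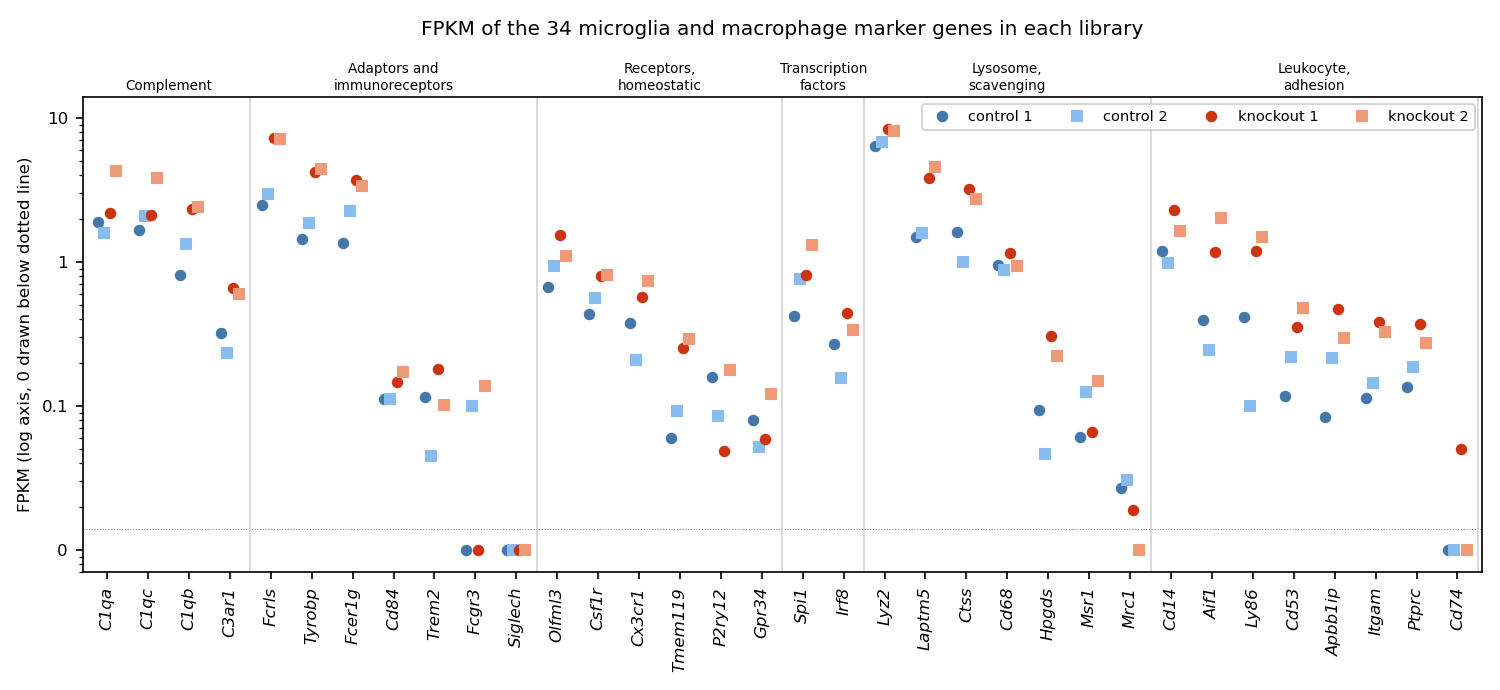
Each point is the FPKM (log axis) of 1 marker gene in 1 library, for 2 control (blue) and 2 knockout (red) libraries, grouped by role and ordered by mean FPKM; values of 0 are drawn below the dotted line. In 25 of the 34 genes both red points lie above both blue ones, and levels run from 0 to 8.42 FPKM.

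The sum did not rest on 1 gene. Lyz2, Fcrls and Tyrobp made up 38.7% of it and, with Laptm5 and Fcer1g, 52.7%. With Fcrls left out the ratio of group means was 1.88, and with Lyz2 left out it was 2.18. Among the 30 markers above 0 in all libraries the ratio of knockout to control mean FPKM had a median of 1.99 (range 0.934 to 5.22), and it was at least 2 in 15 of them. The knockout mean was the higher in 29 of the 30. For all 14868 genes above 0 in all libraries the median ratio was 1.01, the knockout mean was the higher in 52.9%, and 2.69% had a ratio of at least 2. Both knockout libraries were above both control libraries in 25 of the 30 markers, against 23.6% of these genes, and both below in 0, against 19.5%.

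**Figure D2:**
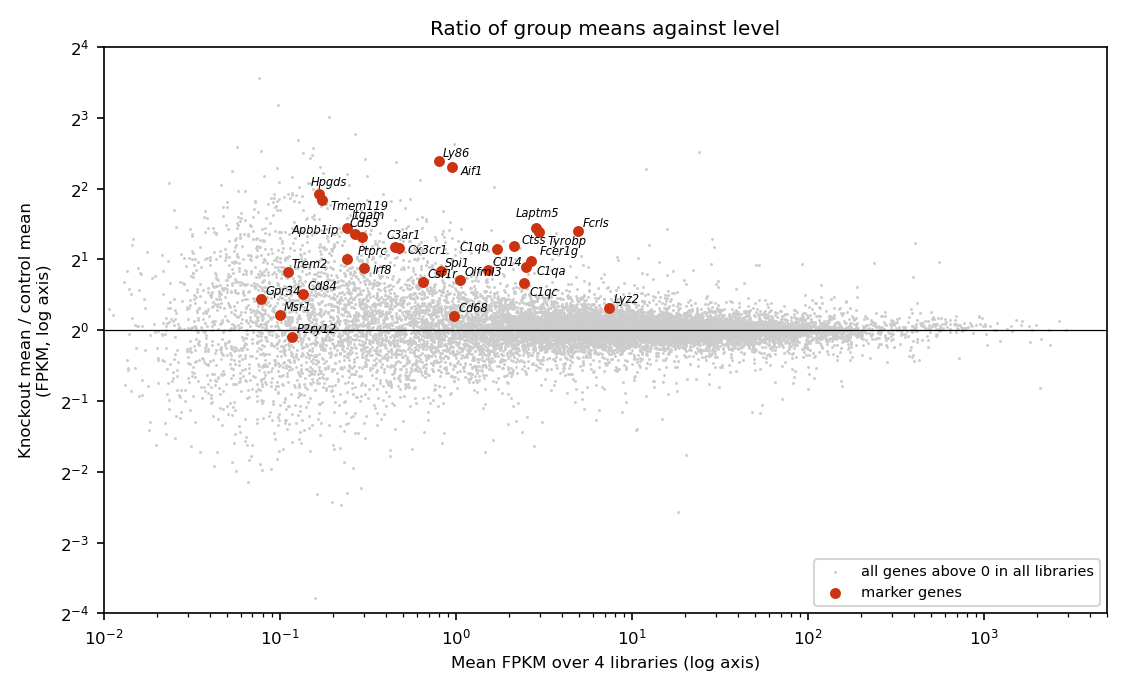
Each grey point is 1 of the 14868 genes above 0 in all 4 libraries, placed by its mean FPKM (x, log axis) and by the ratio of knockout to control mean FPKM (y, log axis); 36 of these genes lie outside the axes. Red points are the 30 markers above 0 in all libraries, of which 29 have a ratio above 1, from Cd68 at 1.15 to Ly86 at 5.22, and P2ry12 has 0.934.

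Across the transcriptome, log2(FPKM + 1) was compared between groups with limma for the 11361 genes whose mean over the 4 libraries reached 1 FPKM. A gene with a Benjamini-Hochberg adjusted p under 0.05 over all of them is called higher or lower. Of the 34 markers 11 reached that mean, and 10 of these 11 had it in the control libraries alone. Fcrls, Tyrobp and Laptm5 were called higher, against 0.528% of all genes tested. None was called lower (0.783% of all genes tested), by limma or in the authors' deposited table. At an unadjusted limma p under 0.05, 10 of the 11 were higher, against 810 of all 11361 genes tested. None of the 11 was lower at that limit (6.58% of all genes tested). The 3 calls were lost with no filter on low values (limma adjusted p = 0.0600 for Fcrls, 0.0855 for Tyrobp and 0.0790 for Laptm5), where 1 of 17397 genes was called higher (0.00575%). They were also lost without knockout replicate 1 (limma adjusted p = 0.0836, 0.125 and 0.0642) and without knockout replicate 2 (0.111, 0.167 and 0.111).

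**Figure D3:**
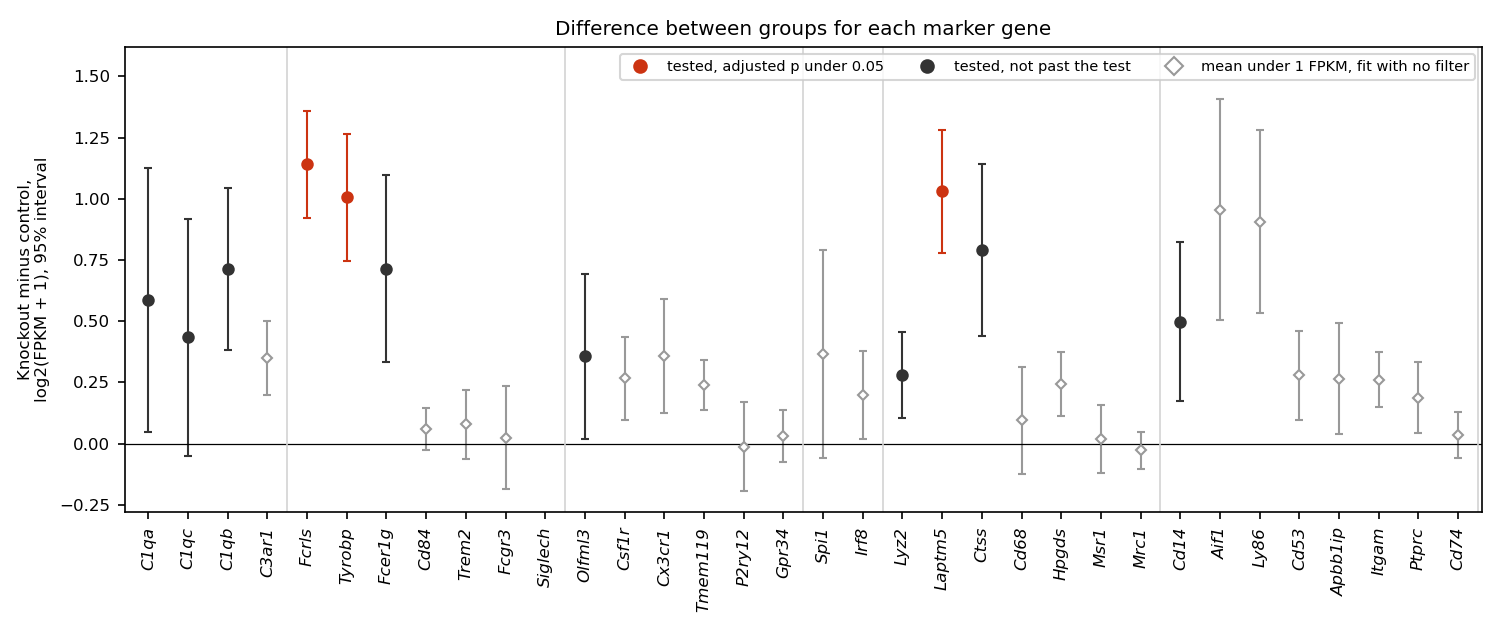
Each point is the difference between knockout and control on the log2(FPKM + 1) scale with its 95% interval from limma, by role as in the plot of levels; filled circles are the 11 tested genes (red for an adjusted p under 0.05) and open diamonds are genes under the minimum, taken from the fit with no filter. Fcrls, Laptm5 and Tyrobp lie between 1.01 and 1.14, and Siglech, at 0 in every library, has no point.

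The adaptors and immunoreceptors held 2 of the 3 called genes. Fcrls, a scavenger receptor of the Fc receptor-like family found in mouse microglia, was at 2.47 and 2.96 FPKM in control against 7.24 and 7.12 in knockout. It rose by 1.14 on the log2(FPKM + 1) scale (SE 0.091, limma adjusted p = 0.00489). Both knockout libraries were more than double either control library, and they lay closer together than the control libraries did. Tyrobp encodes DAP12, the adaptor with an activation motif that carries signals of Trem2 and related receptors. Its FPKM was 1.43 and 1.88 in control against 4.21 and 4.42 in knockout, and it rose by 1.01 (SE 0.108, limma adjusted p = 0.0119). Fcer1g, the Fc receptor gamma chain, an adaptor of the same kind, was at 1.35 and 2.27 FPKM in control against 3.71 and 3.39 in knockout. Its groups did not overlap, but control 2 was well above control 1, and the difference of 0.71 (SE 0.159) was not called (limma adjusted p = 0.108).

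Other receptors of this group were far lower than the adaptors. Trem2, a lipid receptor that signals through DAP12, was at 0.115 and 0.0453 FPKM in control against 0.182 and 0.102 in knockout, and its groups overlapped. Fcgr3, a low-affinity IgG receptor, was listed at 0 in control 1 and knockout 1 and at 0.1002 and 0.137 FPKM in control 2 and knockout 2. Siglech, a DAP12-linked lectin of microglia and plasmacytoid dendritic cells, was listed at 0 in all 4 libraries. Cd84, a leukocyte adhesion receptor of the SLAM family, was at 0.111 and 0.113 FPKM in control against 0.148 and 0.171 in knockout. On this scale, which is per length, the adaptor Tyrobp stood far above its receptor Trem2 in each of the 4 libraries.

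All 4 complement genes had both knockout libraries above both control libraries. C1qa, C1qb and C1qc encode the chains of C1q, the recognition part of the classical complement pathway, and lie next to each other on the minus strand of chromosome 4 (mm10, 136880145 to 136898844). C1qb was at 0.808 and 1.33 FPKM in control against 2.32 and 2.41 in knockout (difference 0.71 on the log2(FPKM + 1) scale, SE 0.139, limma adjusted p = 0.0752). C1qa was at 1.90 and 1.60 FPKM in control against 2.19 and 4.32 in knockout (difference 0.59, SE 0.224, limma adjusted p = 0.317). C1qc was at 1.68 and 2.09 FPKM in control against 2.12 and 3.83 in knockout (difference 0.43, SE 0.202, limma adjusted p = 0.419). None of the chains was called. For C1qa and C1qc knockout 2 was far above knockout 1, whereas for C1qb the knockout libraries were close. C3ar1, the receptor for the complement fragment C3a, was at 0.323 and 0.233 FPKM in control against 0.656 and 0.599 in knockout and was under the minimum of the test.

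Receptors that define microglia at rest gave a mixed picture. Csf1r, the receptor for the growth factors Csf1 and Il34, was at 0.438 and 0.559 FPKM in control against 0.795 and 0.808 in knockout. Cx3cr1, the receptor for the chemokine Cx3cl1, was at 0.377 and 0.208 FPKM in control against 0.572 and 0.739 in knockout. Both genes had groups that did not overlap. Tmem119, a membrane protein used to tell microglia from other macrophages, was at 0.0596 and 0.0921 FPKM in control against 0.252 and 0.291 in knockout, a ratio of means of 3.58 at a low level. P2ry12, the purine receptor that guides microglial processes, was at 0.158 and 0.0856 FPKM in control against 0.0490 and 0.178 in knockout, so that knockout 1 was the lowest of the 4 libraries and knockout 2 the highest. Gpr34, a lysophosphatidylserine receptor, likewise overlapped, at 0.0802 and 0.0523 FPKM against 0.0593 and 0.121. By GENCODE, P2ry12 overlaps Med12l, Gpr34 overlaps Cask and Csf1r overlaps Hmgxb3, each on the opposite strand. The GENCODE span of Cx3cr1 (119901616 to 120069879) overlaps Wdr48 and Ttc21a on the opposite strand and Gorasp1, Csrnp1 and Xirp1 on the same strand. Its deposited locus is shorter (120048683 to 120068296), and whether those genes reach it was not examined. Whether counting used strand is not known here either, so the low values of all 4 receptors are uncertain. Olfml3, a secreted protein made by microglia, was at 0.675 and 0.941 FPKM in control against 1.53 and 1.10 in knockout (difference 0.36, SE 0.140, limma adjusted p = 0.333).

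The lineage factors were present at low levels. Spi1 was at 0.422 and 0.768 FPKM in control against 0.811 and 1.31 in knockout, with control 2 and knockout 1 nearly level. Irf8 was at 0.271 and 0.156 FPKM in control against 0.446 and 0.338 in knockout. By GENCODE, Irf8 overlaps Gm20388 on the same strand, so its low values are uncertain too. Neither reached the minimum for the test. In the fit with no filter their differences were 0.37 and 0.20 on the log2(FPKM + 1) scale, and neither was called (limma adjusted p = 0.478 and 0.366).

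Lysosomal and scavenger genes differed among themselves. Laptm5, a lysosomal membrane protein of blood-derived cells, was at 1.4997 and 1.58 FPKM in control against 3.81 and 4.61 in knockout, and rose by 1.03 (SE 0.105, limma adjusted p = 0.0101). Its call was also lost without control replicate 1 (limma adjusted p = 0.0926) and without control replicate 2 (0.0722), and that of Tyrobp without control replicate 1 (0.0683). Ctss, the protease cathepsin S, was at 1.60 and 0.996 FPKM in control against 3.19 and 2.72 in knockout (difference 0.79, SE 0.147, limma adjusted p = 0.0668), and it was called after TPM scaling (limma adjusted p = 0.0476). Lyz2, lysozyme of macrophages, was the most abundant marker in every library and among those least different between groups: 6.44 and 6.83 FPKM in control against 8.42 and 8.13 in knockout, a ratio of means of 1.25 (difference 0.28, SE 0.074, limma adjusted p = 0.156). Lyz2 reads can be shared with its close copy Lyz1, which was at 0.662 and 0.487 FPKM in control against 0.849 and 0.838 in knockout. Cd68, a glycoprotein of macrophage lysosomes, was at 0.952 and 0.874 FPKM against 1.16 and 0.934, and its groups overlapped.

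The scavenger receptors of macrophages were near 0. Msr1 was at 0.0607 and 0.125 FPKM in control against 0.0663 and 0.148 in knockout. Mrc1, the mannose receptor of macrophages at brain borders, was at 0.0271 and 0.0306 FPKM in control against 0.0189 and 0 in knockout, the 1 marker with both knockout libraries below both control libraries. Hpgds, the hematopoietic prostaglandin D synthase, was at 0.0940 and 0.0464 FPKM in control against 0.309 and 0.224 in knockout. Values of this size can rest on few reads, whose number is not given.

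Leukocyte, adhesion and antigen presentation genes included the largest ratios. Ly86, which encodes MD-1, a partner of a Toll-like receptor homologue, was at 0.415 and 0.0999 FPKM in control against 1.20 and 1.49 in knockout, a ratio of means of 5.22. Aif1, whose protein Iba1 is the usual stain for microglia, was at 0.398 and 0.245 FPKM in control against 1.17 and 2.01 in knockout, a ratio of means of 4.95. In both genes the libraries of a group were also far apart, and neither reached the minimum for the test. Without a filter their differences were 0.91 and 0.96 on the log2(FPKM + 1) scale, not called (limma adjusted p = 0.141 and 0.165).

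Other leukocyte genes had groups that did not overlap, at levels under 0.5 FPKM. Ptprc, the phosphatase CD45, was at 0.135 and 0.186 FPKM in control against 0.374 and 0.272 in knockout. Itgam, the integrin chain CD11b, was at 0.114 and 0.145 FPKM against 0.383 and 0.326. It overlaps Gm49368 on the same strand by GENCODE, so these low values are uncertain. Cd53, a tetraspanin, was at 0.118 and 0.218 FPKM against 0.354 and 0.481, and Apbb1ip, an adaptor that links Rap1 to integrins, at 0.0843 and 0.215 against 0.468 and 0.297. The ratios of means of these 4 genes were 2.01, 2.73, 2.49 and 2.56. Cd14, the co-receptor for bacterial lipopolysaccharide, was at 1.20 and 0.979 FPKM in control against 2.29 and 1.65 in knockout (difference 0.50, SE 0.136, limma adjusted p = 0.173). Cd74, the invariant chain of MHC class II, was listed at 0 in 3 libraries and at 0.0506 FPKM in knockout 1.

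Under the minimum of the test, 22 markers were above 0, and 14 of them had both knockout libraries above both control libraries, against 21.9% of all genes above 0 in any library. In the fit with no filter, 21 of 33 markers had an unadjusted limma p under 0.05 with knockout higher, against 6.95% of all 17397 genes in that direction, and 0 with knockout lower, against 5.48%. The median difference was 0.28 on the log2(FPKM + 1) scale for the 33 markers and 0.006 for all genes. No marker passed the adjusted test in that fit, where the lowest limma adjusted p was 0.0600.

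The authors' deposited table, which holds 1 pooled FPKM per group and a Cuffdiff test, was read for 33 of the markers, Spi1 left out. It has a test for 17 of them, and 7 have a q under 0.05 with knockout higher, against 1.74% of the 12519 genes tested there. None is lower, against 4.04%. In the authors' deposited table these 7 are Fcrls (q = 8.02e-13), Laptm5 (q = 1.26e-07), Ctss (q = 0.00473), Aif1 (q = 0.0147), Cx3cr1 (q = 0.0229), Ly86 (q = 0.0264) and C3ar1 (q = 0.0440). Tyrobp has a log2 fold change of 1.23 with q = 0.134 in the authors' deposited table. The 2 sets of calls come from the same libraries and share Fcrls and Laptm5.

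Promoters were read for the 25 markers with a window in the RefSeq table (GRCm38.p6, 250 bases before to 50 after the start); Tyrobp, C1qa, Csf1r, Gpr34, Tmem119, Spi1, Msr1, Cd14 and Cd74 have none in it. The motif GAGGAAGT, a form of the site bound by PU.1, was searched on both strands and is present in 5 of the 25 (20%), against 3.69% of 27025 gene symbols with a window of the same length. The joint PU.1 and IRF motif (GGAA, then NN for any bases, then GAAA) is in 1 of 25, Cd68, against 3.16% of symbols. The shorter core GAGGAA, which lies within the first motif and was added after the promoters were read, is in 17 of 25 (68%) against 31.3% of symbols. The 5 stretches with the full motif are printed with those of the called genes Laptm5 and Fcrls, which hold only the core. Each runs 5′ to 3′ on the strand of its gene, with the motif in capitals. A match describes these letters only, and binding was not measured.
Ctss (chr3:95526726-95526805, plus strand, motif at the transcription start): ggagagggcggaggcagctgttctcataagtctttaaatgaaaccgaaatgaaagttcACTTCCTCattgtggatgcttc
Cd53 (chr3:106790130-106790209, minus strand): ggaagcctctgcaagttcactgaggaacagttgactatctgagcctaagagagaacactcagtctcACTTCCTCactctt
Apbb1ip (chr2:22774267-22774346, plus strand): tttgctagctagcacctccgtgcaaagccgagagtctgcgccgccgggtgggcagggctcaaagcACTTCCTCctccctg
Hpgds (chr6:65144711-65144790, minus strand): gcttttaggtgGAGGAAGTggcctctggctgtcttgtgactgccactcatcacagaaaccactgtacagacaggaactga
C1qc (chr4:136893065-136893144, minus strand): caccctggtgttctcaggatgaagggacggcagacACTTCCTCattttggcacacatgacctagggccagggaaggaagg
Laptm5 (chr4:130913256-130913335, plus strand, core only): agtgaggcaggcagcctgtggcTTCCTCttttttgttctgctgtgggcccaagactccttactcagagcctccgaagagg
Fcrls (chr3:87263625-87263704, minus strand, core only): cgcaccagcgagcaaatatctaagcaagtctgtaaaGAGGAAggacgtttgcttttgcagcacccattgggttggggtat
In Ctss, Cd53 and Apbb1ip the motif lies in the opposite orientation within a few bases of the start, and in Hpgds and C1qc it lies upstream.

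A further 33 myeloid genes, listed separately from the markers, were compared in the same way. Of the 32 above 0, 18 had both knockout libraries above both control libraries, 4 had both below and 10 overlapped. Among all 17397 genes above 0 in any library, 21.9% had both above and 17.8% had both below. Emr1 (Adgre1), which encodes the macrophage antigen F4/80, was at 0.846 and 0.875 FPKM in control against 2.11 and 2.48 in knockout, and rose by 0.82 (limma adjusted p = 0.0218). Vav1, a signalling factor of blood cells, was at 0.153 and 0.179 FPKM against 0.566 and 0.499. Itgb2, the integrin partner of Itgam, was at 0.293 and 0.287 FPKM against 0.718 and 0.624, and Rac2, a GTPase of blood cells, at 0.496 and 0.440 against 1.11 and 1.35. Vav1, Itgb2 and Rac2 were picked after their values were seen. At similar levels Lpcat2 had both knockout libraries below, at 0.245 and 0.347 FPKM in control against 0.192 and 0.159 in knockout. So did Lair1, at 0.706 and 0.725 FPKM against 0.682 and 0.661.

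None of the 3 most abundant genes of that list had both knockout libraries above both control libraries. Plcg2, a phospholipase, was at 50.0 and 46.2 FPKM in control against 39.5 and 36.9 in knockout (difference -0.32, limma adjusted p = 0.123). Sall1, a transcription factor of microglia that neural progenitors also make, was at 21.0 and 21.0 FPKM in control against 15.1 and 15.8 in knockout, and fell by 0.42 (limma adjusted p = 0.0466). Coro1a, an actin regulator, was at 9.81 and 7.62 FPKM in control against 9.08 and 9.96 in knockout, and its groups overlapped. The whole list summed to 95.5 and 90.2 FPKM in control against 86.6 and 86.1 in knockout, a ratio of means of 0.930. Its 28 genes above 0 and under 3 FPKM, a limit set after the values were seen, summed to 8.64 and 7.91 FPKM in control. In knockout those 28 genes summed to 14.3 and 14.9 FPKM, a ratio of means of 1.76.

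Genes of macrophages at the brain borders, of MHC class II and of microglial activation showed no common direction. For the counts that follow, 21.9% of all genes above 0 in any library had both knockout libraries above and 17.8% both below. Of 9 border macrophage genes 3 had both knockout libraries above and 1 both below, and Cd163 and Lyve1, which define these cells, were at or under 0.0522 FPKM. Folr2, a folate receptor, was the 1 abundant gene of this list, at 10.9 and 11.0 FPKM in control against 9.74 and 9.37 in knockout. Of 6 MHC class II genes, 0 had groups that did not overlap, and H2-Aa and H2-Eb1 were at or under 0.273 FPKM. The most abundant of them, H2-DMa, was at 4.87 and 4.17 FPKM in control and 3.91 and 5.68 FPKM in the knockout libraries. Of 12 activation genes, 3 had both knockout libraries above and 3 both below. The chemokine gene Ccl3 was at 0.185 and 0.504 FPKM in control against 0.719 and 1.32 in knockout, and Tnf at 0.0360 and 0.0299 against 0.193 and 0.130. Spp1, which encodes osteopontin, was at 0.399 and 0.550 FPKM against 0.115 and 0.0881. Apoe, also an astrocyte gene, was at 252.0 and 213.7 FPKM against 253.5 and 246.4. Of the 27 genes on these 3 lists 4 reached the minimum of the test, and none was called by limma. At an unadjusted p under 0.05, 0 of these 4 were higher and 1 was lower, Folr2, against 810 and 748 of all 11361 genes tested. The fit with no filter held 24 of the 27 genes. At an unadjusted limma p under 0.05, 4 of the 24 were higher there (Tnf, Ccl3, Stab1 and Cbr2) and 2 lower (Spp1 and Folr2). Over all 17397 genes of that fit, 6.95% were higher and 5.48% lower. None of the 24 was called (lowest limma adjusted p = 0.127).

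Of 7 ligands that microglia read, 3 had both knockout libraries above both control libraries and 1 had both below. Among all genes above 0 in any library these shares were 21.9% and 17.8%. Csf1 was at 24.4 and 23.1 FPKM in control against 23.6 and 22.6 in knockout. Il34, the other ligand of Csf1r, was at 0.202 and 0.0836 FPKM against 0.146 and 0.157. The ligand Csf1 was thus far more abundant than its receptor, and its groups overlapped. Cx3cl1 was at 3.55 and 3.61 FPKM in control against 4.02 and 4.36 in knockout (difference 0.18, limma adjusted p = 0.411). Cd47, which restrains phagocytosis, was at 22.2 and 26.0 FPKM against 25.3 and 24.6. Cd200, which restrains microglia through a receptor of theirs, was at 4.02 and 4.55 FPKM against 5.05 and 5.34 (difference 0.23, limma adjusted p = 0.304). Tgfb1, a growth factor that microglia depend on, was under the minimum of the test, at 0.189 and 0.0838 FPKM in control against 0.396 and 0.576 in knockout (limma adjusted p = 0.199 with no filter). Tgfb2, another growth factor of the transforming growth factor beta family, was at 6.87 and 7.14 FPKM in control against 4.96 and 4.62 in knockout, and fell by 0.47 (limma adjusted p = 0.0472). With no filter on low values the calls of Emr1, Sall1 and Tgfb2 were lost (limma adjusted p = 0.0829, 0.111 and 0.153). Those of Sall1 and Tgfb2 were also lost with a minimum mean of 0.1 FPKM (limma adjusted p = 0.0619 and 0.0767) and without the trend (0.0669 and 0.0557). Leaving out any 1 library also lost all 3, with limma adjusted p from 0.0888 to 0.153 for Emr1, from 0.227 to 0.255 for Sall1 and from 0.206 to 0.316 for Tgfb2.

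Lists for other cell types were read beside the markers. Of 19 genes of T, B and natural killer cells, neutrophils and mast cells, 10 were at 0 in every library, Cd3e and S100a9 among them, and the list summed to 0.0788 and 0.498 FPKM in control against 0.544 and 0.538 in knockout. Endothelial and mural genes summed to 1.05 and 1.13 FPKM against 1.30 and 0.947. All 5 fibroblast genes were lower in both knockout libraries, against 17.8% of all genes above 0 in any library. They summed to 1.64 and 1.60 FPKM in control against 1.12 and 0.629 in knockout, and were under the minimum of the test.

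Neural genes were read in the same way. Neuronal genes, mainly Tubb3, summed to 30.8 and 30.1 FPKM in control against 29.6 and 30.9 in knockout. Astrocyte genes, led by Gfap, Aldoc and Slc1a3, summed to 577.5 and 546.2 FPKM against 540.9 and 520.8, and of 8 such genes 0 were called by limma. Of these 8, 1 had both knockout libraries above both control libraries and 3 had both below. Those shares were 21.9% and 17.8% over all genes above 0 in any library. At an unadjusted limma p under 0.05, 1 of the 8 was higher and 2 were lower (Slc1a2 and Gja1). Over all 11361 genes tested, 810 were higher and 748 lower. For the 15 oligodendrocyte lineage genes the ratio of knockout to control sums was 0.903, with 0 called by limma. At an unadjusted p under 0.05, 3 of the 15 were higher and 3 lower, against 810 and 748 of all 11361 genes tested. The part of a changed share of microglia or macrophages in the differences of single markers was not tested.

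**Figure D4:**
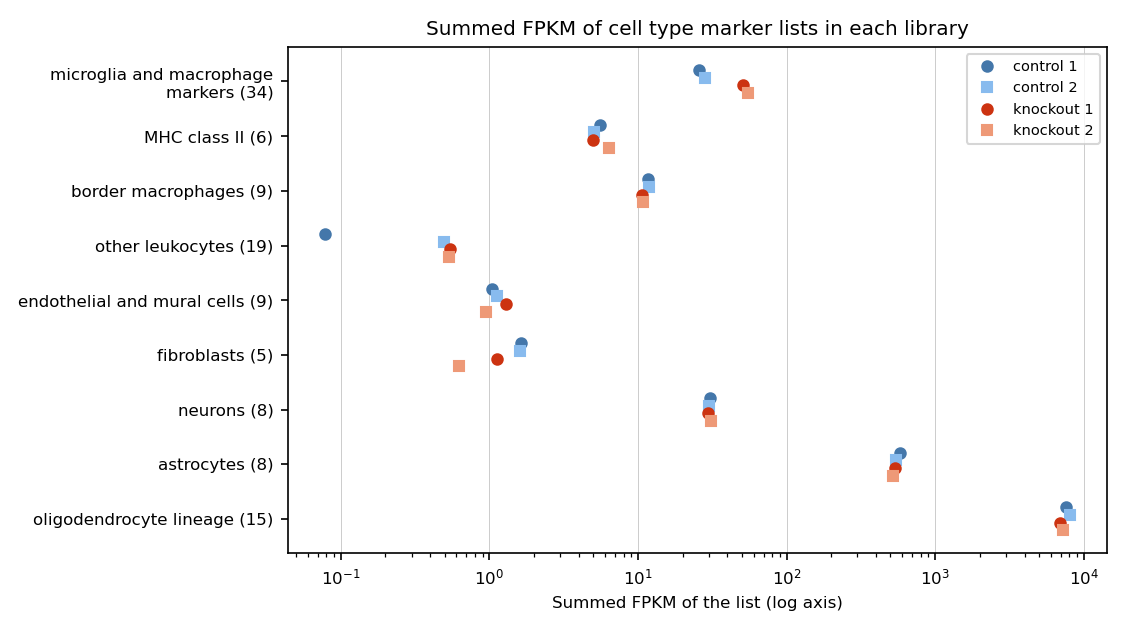
Each point is the summed FPKM (log axis) of a list of cell type markers in 1 library, for 2 control (blue) and 2 knockout (red) libraries, with the number of genes in brackets. The microglia and macrophage markers sum to 25.8 and 28.1 in control against 50.6 and 54.7 in knockout, and the oligodendrocyte list to 7657 and 8061 against 6914 and 7272. The lists of other myeloid genes, microglial activation and ligands read by microglia are not drawn. Their ratios of knockout to control sums were 0.930, 1.07 and 0.997.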

How the data were processed

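RNA of 2 control and 2 lncOL1 knockout samples was sequenced from TruSeq libraries, per the labels' protocols. Per the submitters' processing notes, Cuffdiff, Cufflinks, TopHat and CASAVA were used, with build mm10. Their versions and options, the annotation and the use of strand are not stated there. The authors deposited FPKM per gene for each sample and a table with pooled FPKM, a log2 fold change and p-values and q-values for each gene, per the file headers. Since FPKM hold no counts, count models were not fitted.

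Rows of a symbol were summed (258 symbols) and 9 symbols whose status was not OK in every library were dropped. Genes that averaged at least 1 FPKM were fitted as log2(FPKM + 1) with limma 3.58.1 in R 4.3.3 (eBayes with trend, 2 residual and 4.60 prior degrees of freedom, no covariate), with Benjamini-Hochberg adjustment. The scale understates changes of low genes. The script was tested on simulated data. Locus starts in the files count from 0 and are printed counted from 1. The markers, lists and tests were chosen with earlier results of these data known. All 34 markers are named. In the other lists, the rule took called genes and up to 4 abundant ones, and other genes of those lists were picked after their values were seen. Protein sequences were not analysed here. Some genes of the other lists are not reported here by name. Alternatives were 2 other filters, 2 pseudocounts, TPM scaling, quantile normalization, no trend, each library left out and a replicate block.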

Additional observations from a re-analysis of the deposited data

How the results depend on the processing

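All 11 tested markers kept a positive difference under each of the alternatives run. Of these markers 3 were called higher. The number was 0 with no filter on low values, 0 to 2 with each library left out and 6 with a replicate block (C1qb, Fcer1g and Ctss added). Over all genes 60 were called higher and 89 lower. These became 1 and 3 with no filter, 11 to 16 and 5 to 26 with each library left out, and 158 and 183 with the replicate block. Leaving out a library leaves 1 residual degree of freedom, and the lone sample of its group is assumed to vary like the others. Same-numbered samples did not deviate together (correlation -0.05), and nothing in the labels says that a number marks a shared culture, so the block is given for completeness. The ratio of summed marker FPKM was 1.88 to 2.04 with each library left out and 1.95 with TPM scaling. lncOL1 was called under every alternative. Without read counts, the depth behind markers under 0.2 FPKM cannot be stated.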
